A study of Homo sapiens with 6 samples.

Results

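Kidney-enriched and p53-responsive microRNAs (miRNAs) were examined in HEK-293FT cells, a human embryonic kidney line that carries the SV40 large T antigen. The 8 members were chosen by name, with earlier results of these data known. They were hsa-miR-192, hsa-miR-194, hsa-miR-215 and hsa-miR-204 as miRNAs of kidney epithelium, and hsa-miR-34a, hsa-miR-34c, hsa-miR-449a and hsa-miR-449b as a family with a shared seed. They are 8 of the 377 human miRNA assays on each quantitative PCR card. The prefix hsa, for human, is left out from here on. The name miR-449a heads no line of the deposited tables, which list that assay as hsa-miR-449 and give it the miRBase name hsa-miR-449a, and that line was used. There were 3 control samples and 3 samples labelled TruB1 KD, in which TruB1, a pseudouridine synthase of transfer RNA, was targeted with small interfering RNA delivered by Lipofectamine RNAiMAX. What the control cells received, the time from transfection to harvest and the level of TruB1 itself are not given in the sources used here. All 6 samples come from this 1 cell line, and their titles carry a series number from 1 to 3 shared by a control and a knockdown sample. Nothing states that the samples came from separate cultures, so p-values measure only the spread between these samples. In limma that spread is also pooled over assays. The card holds no messenger RNA, so the identity of the line could not be checked against marker genes.

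A mature miRNA guides an Argonaute protein to messenger RNAs that pair with its seed, bases 2 to 8 from the 5′ end, and lowers their output. Members of the miR-192 and miR-194 clusters and miR-204 are abundant in kidney tubule epithelium. Genes of the miR-34 family are direct transcriptional targets of p53 and restrain cell cycle entry, and miR-449 miRNAs, best known from multiciliated cells, have the same seed. Large T antigen binds p53, so the family was measured in cells in which p53 is held in a complex with a viral protein.

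The 8 assayed sequences are shown because their seeds decide which members can share targets. Capitals mark the seed, and the sequences are the assay targets of the deposited table. RefSeq's table for GRCh38.p14 held 7 of the 8 with identical letters and no mature entry for miR-34c-5p.
miR-192-5p: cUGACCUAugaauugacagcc
miR-215-5p: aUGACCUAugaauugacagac
miR-194-5p: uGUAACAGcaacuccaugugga
miR-204-5p: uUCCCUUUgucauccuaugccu
miR-34a-5p: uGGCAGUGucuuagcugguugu
miR-34c-5p: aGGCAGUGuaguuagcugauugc
miR-449a: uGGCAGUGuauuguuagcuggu
miR-449b-5p: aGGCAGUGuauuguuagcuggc

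These sequences fall into 4 seeds. Relative to miR-192, with positions counted from 1 at the 5′ end, miR-215 carries C1A and C20A, so its seed is the same. Relative to miR-449a, miR-449b carries U1A and U22C, again outside the seed. The seed of miR-34a, miR-34c, miR-449a and miR-449b is carried by these 4 assays of the card and no other. The seed of miR-204 is also that of miR-211, which relative to miR-204 carries A17U and U18C. The seed of miR-194 belongs to that assay alone. How far each assay tells apart miRNAs that differ by 2 bases was not tested.

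The genes lie in 6 places on GRCh38.p14. MIR192 (chr11:64891137-64891246, minus strand) and MIR194-2 (chr11:64891355-64891439, minus strand) are separated by 108 bases within the span of the non-coding host gene MIR194-2HG. MIR215 (chr1:220117853-220117962, minus strand) and MIR194-1 (chr1:220118157-220118241, minus strand) are 194 bases apart within the span of IARS2, a gene for a mitochondrial isoleucyl-tRNA synthetase. Both MIR194 genes give the same mature miR-194, so the assay cannot tell their products apart. MIR204 (chr9:70809975-70810084, minus strand) lies within the span of TRPM3, a gene for a cation channel. MIR34A (chr1:9151668-9151777, minus strand) lies within MIR34AHG, and MIR34C (chr11:111513439-111513515, plus strand) follows MIR34B after 417 bases within the spans of MIR34BHG and BTG4. MIR449A (chr5:55170532-55170622, minus strand) and MIR449B (chr5:55170646-55170742, minus strand) are 23 bases apart within the span of CDC20B. The annotation used here gives gene spans and not exons or introns.

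Each assay is read as a threshold cycle (Ct): of up to 40 PCR cycles, the one in which the fluorescent signal passes a preset line. More template gives a lower Ct. A well that never passes it is undetermined, and a Ct under 35 is called detected. The deposited level is the ratio to U6 small nuclear RNA, used here as its log2. The values of the members are negative because their Ct was later than that of U6 on each card. U6 mean Ct ran from 12.2 to 15.4 over the 6 cards, from 2 to 4 determined wells each, and 188 to 226 miRNA assays were detected per sample. On a single card the U6 wells differed by up to 2.77 cycles (control sample 1). Control sample 3, with the lowest U6 mean, had 2 determined wells, which were 1.82 cycles apart. Because U6 moved by several cycles, levels are also given as Ct minus the mean Ct of the 157 assays detected in all 6 samples, called the card mean (25.9 to 27.7). On that scale a positive value is a level below the card mean. There is 1 well per assay and sample, so well-to-well error and sample differences are read together.

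Detection divided the members into 3 sets. The 5 members detected in all 6 samples were miR-192, miR-194, miR-204, miR-34a and miR-449a. The miR-449b assay was detected in 5 samples and was undetermined in control sample 2. The miR-34c assay was detected in 2 samples and miR-215 in 1. Counted by sample, 6, 5 and 6 of the 8 members were detected in control samples 1, 2 and 3, and 7 in each knockdown sample. Over the group this is 17 of 24 wells (70.8%) in control and 21 of 24 (87.5%) in knockdown, while over all miRNA assays the shares were 54.7% and 53.7%. At a Ct under 32 the member wells numbered 17 (70.8%) in control and 19 (79.2%) in knockdown, against 49.2% and 44.7% over all miRNA assays. At a Ct under 35 the added knockdown wells were those of miR-34c, miR-215 and miR-449b.

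**Figure D1:**
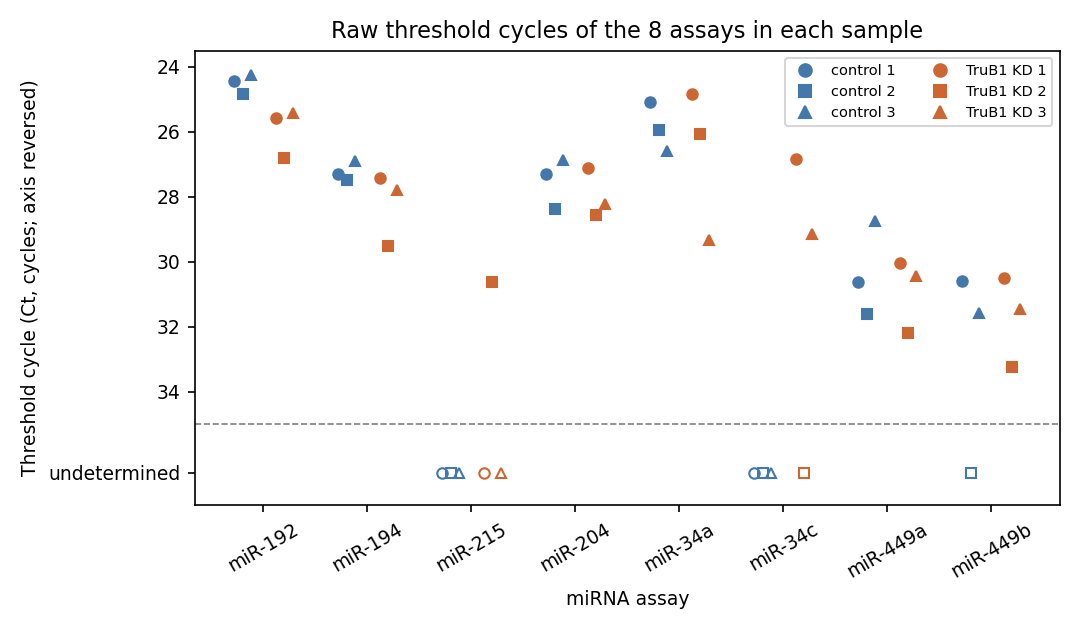
Raw Ct in cycles (reversed vertical axis, so more template is higher) of the 8 assays in 3 control (blue) and 3 TruB1 KD (orange) samples, with the marker shape giving the series number and open markers showing undetermined wells. The dashed line is Ct 35. The miR-34c wells are filled in 2 knockdown samples only, the miR-215 well in 1, and all 3 knockdown Ct values of miR-192 are later than its 3 control values.

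The kidney miRNA miR-192 had the lowest mean Ct of the members, 25.2. Its log2 ratio to U6 in series 1, 2 and 3 was -9.68, -10.86 and -12.11 for the control samples, and -10.70, -11.36 and -12.17 for the knockdown samples. The groups overlapped, and within both the value of series 1 was the highest and that of series 3 the lowest. The 3 control values averaged -10.88 ± 1.21 (SD, n = 3) and the 3 knockdown values -11.41 ± 0.74 (SD, n = 3). In limma the log2 difference was -0.53 (95% interval -3.40 to 2.35, adjusted p = 0.999), smaller than the SD of either group. Those SDs also hold the differences between series.

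Within series 1, 2 and 3 the knockdown to control ratio of miR-192 was 0.494, 0.708 and 0.957, lower in 3 of 3 pairs. Of the 161 assays determined in all 6 samples, 19.3% were lower in all 3 pairs, and 4.35% were higher in all 3. Against the card mean the change of miR-192 was -0.85, -0.86 and 0.53, and the direction in series 3 was reversed. In raw Ct the 3 knockdown values (25.6, 26.8 and 25.4) were all later than the 3 control values (24.4, 24.8 and 24.3). The same held for 14.9% of the 161 assays, and 61.5% were later in all 3 pairs.

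The cluster partner miR-194 was detected later in every sample, with a mean Ct of 27.7. Its log2 ratio to U6 was -12.56, -13.52 and -14.75 in control and -12.54, -14.07 and -14.53 in knockdown, for series 1, 2 and 3. Samples of the same series lay close together and the groups overlapped over nearly their whole range. The log2 difference was -0.10 (95% interval -2.98 to 2.78, adjusted p = 0.999, limma), and the within-series ratios were 1.01, 0.685 and 1.17. Against the card mean the mean within-series change was 0.03 ± 0.87 (SD, n = 3 pairs), so its sign depended on the reference.

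Because U6 cancels in a difference of 2 assays on 1 card, miR-194 was set directly against miR-192, with which MIR194-2 shares a host gene. The Ct of miR-194 was later by 2.88, 2.66 and 2.64 cycles in control and by 1.84, 2.71 and 2.36 in knockdown. Knockdown sample 1 had the smallest difference, and knockdown sample 2 lay within the control range. The control mean was 2.73 ± 0.13 (SD, n = 3), the knockdown mean was 2.30 ± 0.43 (SD, n = 3), and the change of -0.43 cycles was larger than the control SD and no larger than the knockdown SD (p = 0.3 in a two-sided exact permutation test, where 0.1 is the smallest value possible). Of the pairs planned for this test it was the only one with both members determined in all 6 samples, so 1 pair was tested. Within series 1, 2 and 3 its difference changed by -1.04, 0.05 and -0.29 cycles, so the directions were mixed. A two-sided exact sign-flip test, which pairs the samples by series, gave p = 0.5, where 0.25 is the smallest value possible. The seed relatives miR-34a and miR-449a were also determined in all 6, but were not among the planned pairs and are described with the miR-449 members, without a test. Over the 6 samples the difference had an SD of 0.37 cycles, against a median of 0.96 over all 12880 pairs of assays determined in all samples, of which 3.36% had a smaller SD. The pairs share assays and cards, and this share is a description chosen after the values had been seen.

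The other cluster that yields miR-194 has miR-215 as its partner. The miR-215 assay was undetermined in all 3 control samples and in knockdown samples 1 and 3, and gave a Ct of 30.6 in knockdown sample 2. That well is 2.92 cycles after the card mean, ahead of 35.5% of the determined assays of its card. The pattern was not rare on the card: 4.77% of the 377 assays were undetermined in all control samples and detected in exactly 1 knockdown sample, and 4.24% showed the reverse. No fold was computed for miR-215.

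The miRNA of the TRPM3 locus, miR-204, had a mean Ct of 27.7, like miR-194. Its log2 ratio to U6 was -12.56, -14.38 and -14.70 in control and -12.24, -13.12 and -14.98 in knockdown. The series 1 values were the highest and the series 3 values the lowest in both groups, which overlapped. The log2 difference was 0.43 (95% interval -2.45 to 3.32, adjusted p = 0.999, limma), below the SD of either group (1.16 and 1.40).

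Within series the ratio of miR-204 was 1.25, 2.40 and 0.823, a mean log2 change of 0.43 ± 0.78 (SD, n = 3 pairs). Against the card mean miR-204 changed by 0.49, 0.91 and 0.32 in series 1, 2 and 3, higher in 3 of 3 pairs with a mean of 0.57 ± 0.30 (SD, n = 3 pairs). On that scale 11.8% of the 161 assays were higher in all 3 pairs and as many were lower. The Ct of miR-204 minus the card mean was 1.42, 1.77 and 0.92 in control and 0.93, 0.86 and 0.60 in knockdown, so control sample 3 fell among the knockdown values. Knockdown levels lay wholly above control on that scale for 3.11% of the assays. Its seed relative miR-211 was determined in control sample 2 alone, at a Ct of 32.2.

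**Figure D2:**
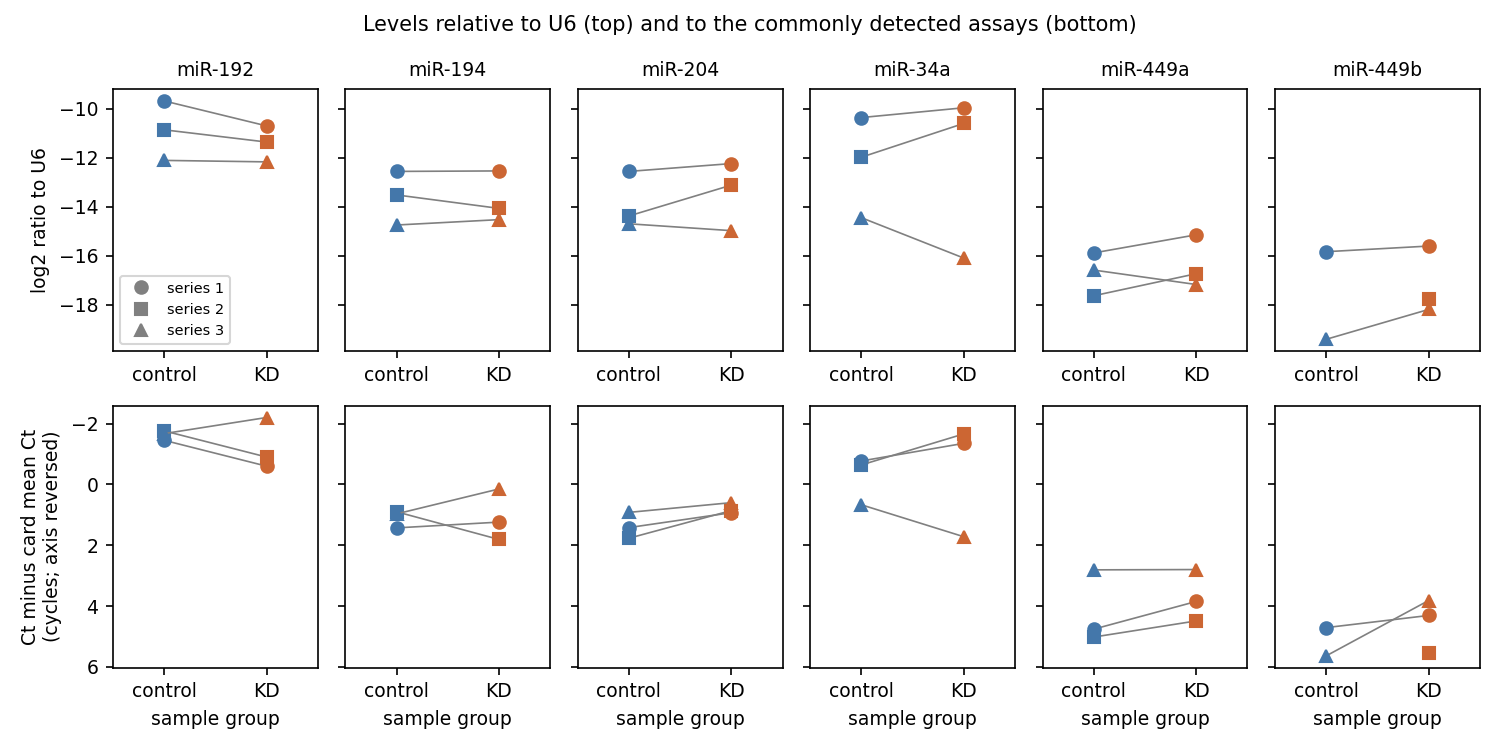
Levels of the 6 members determined in at least 5 samples, by group (blue control, orange TruB1 KD), with lines joining samples of 1 series number. The top row is the log2 ratio to U6 and the bottom row is Ct minus the card mean in cycles on a reversed axis, so higher means more in both. Control sample 2 has no value for miR-449b. Relative to U6, series 3 lies lowest in both groups for each member except miR-449a. Relative to the card mean it lies lowest in both groups for miR-34a and highest in both for miR-204 and miR-449a.

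Of the members with the miR-34 seed, miR-34a was the most readily detected, with a mean Ct of 26.3. Its log2 ratio to U6 was -10.36, -11.98 and -14.45 in control and -9.96, -10.60 and -16.10 in knockdown. Both series 3 samples were far below the other 4, and the span of 6.14 log2 units over the 6 samples was the widest among the members determined in all of them. The log2 difference was 0.04 (95% interval -2.90 to 2.99, adjusted p = 0.999, limma), with SDs of 2.06 in control and 3.37 in knockdown. The limma fit draws the variance of each assay toward a value shared by all assays. The standard error of miR-34a was 1.49, near the 1.46 of miR-449a, whose SDs were 0.88 and 1.07. The interval therefore does not reflect the wider spread of miR-34a itself.

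Within series the ratio of miR-34a was 1.32, 2.59 and 0.319, so series 3 went the other way from series 1 and 2. The card mean did not remove this split. Ct minus the card mean was -0.77, -0.64 and 0.67 in control and -1.35, -1.66 and 1.72 in knockdown, and the within-series changes were 0.57, 1.01 and -1.05. Without knockdown sample 3 the log2 difference relative to U6 was 1.98, and without knockdown sample 1 it was -1.09. Over the 6 samples miR-34a had an SD of 1.29 cycles relative to the card mean, above that of 92.4% of the 157 commonly detected assays, whose median SD was 0.66.

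The miR-34c assay was undetermined in the 3 control samples and in knockdown sample 2. It gave a Ct of 26.8 in knockdown sample 1 and 29.1 in knockdown sample 3, or log2 ratios to U6 of -11.96 and -15.88. Its Ct minus that of miR-34a was 2.00 cycles in knockdown sample 1 and -0.22 cycles in knockdown sample 3. Of the 377 assays, 0.265%, which is miR-34c alone, were undetermined in all control samples with a Ct under 30 in at least 2 knockdown samples. The reverse pattern at that limit was seen in 0%. With the limit at Ct 35 the share was 0.796% (3 assays), against 0.531% (2 assays) for the reverse pattern. These counts were added after the values of miR-34c had been seen, so they are descriptive only. Undetermined wells also occurred among assays that other samples detected early: of 170 assays with a Ct under 30 somewhere, 12.4% had an undetermined well in another sample and 2.35% (4 assays, miR-34c included) were undetermined in at least 4 others. No fold or test was computed for miR-34c, and the part of such wells in its pattern was not tested. No assay for miR-34b, its neighbour, is among the tables used here.

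The miR-449 members were detected late. The log2 ratio of miR-449a to U6 was -15.89, -17.64 and -16.59 in control and -15.15, -16.74 and -17.18 in knockdown, at a mean Ct of 30.6. The groups overlapped, and the log2 difference was 0.34 (95% interval -2.53 to 3.22, adjusted p = 0.999, limma), below the SD of either group (0.88 and 1.07). Within series the ratio was 1.67, 1.86 and 0.662, a mean log2 change of 0.34 ± 0.82 (SD, n = 3 pairs). Against the card mean the changes were 0.91, 0.53 and 0.00, so in series 3 both samples were at the same level.

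For miR-449b the log2 ratio to U6 was -15.84 in the series 1 control and -19.42 in the series 3 control, while knockdown samples 1, 2 and 3 gave -15.61, -17.79 and -18.20. Knockdown samples 2 and 3 lay between the 2 control values, and knockdown sample 1 was above both. The log2 difference over these 5 samples was 0.43 (95% interval -2.81 to 3.67, adjusted p = 0.999, limma). Series 1 and 3 gave ratios of 1.17 and 2.32, higher in 2 of 2 pairs. With the undetermined well of control sample 2 set to Ct 40 the difference became 3.23, which follows from the value assigned to that well.

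The hairpins of miR-449a and miR-449b are neighbours, yet their Ct difference was uneven. The Ct of miR-449b minus that of miR-449a was -0.05 cycles in the series 1 control and 2.83 in the series 3 control, while knockdown samples 1, 2 and 3 gave 0.46, 1.05 and 1.02. Control sample 3 had the largest difference. Relative to the card mean, the Ct of miR-449b was 4.71 and 5.64 in the series 1 and 3 controls and 4.31, 5.54 and 3.82 in knockdown samples 1, 2 and 3, so the 2 samples of series 3 gave both the latest and the earliest of the 5 values. Between seed-sharing members of different loci the spread was wider still. The Ct of miR-449a was 5.53, 5.66 and 2.14 cycles later than that of miR-34a in control and 5.20, 6.14 and 1.09 later in knockdown. Both series 3 samples stood apart from the other 4, and relative to the card mean their average Ct differed from that of series 1 and 2 by 2.30 cycles for miR-34a and by -1.72 cycles for miR-449a. The control and knockdown samples of series 3 shared this pattern, and what the series number stands for is not stated.

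**Figure D3:**
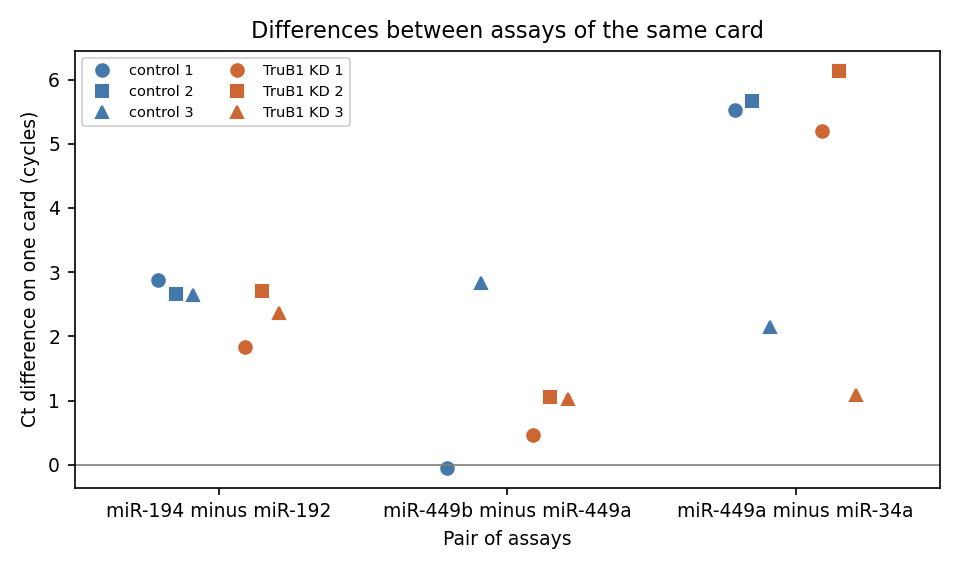
Ct difference in cycles between 2 assays of the same card for miR-194 minus miR-192, miR-449b minus miR-449a and miR-449a minus miR-34a, in control (blue) and TruB1 KD (orange) samples, with marker shape for the series number. The first pair stays between 1.84 and 2.88 cycles in all 6 samples. The last falls to 2.14 and 1.09 cycles in the series 3 samples and is at least 5.20 in the others.

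Ordered by mean log2 ratio to U6, the members determined in all samples ran from miR-192 through miR-34a, miR-204 and miR-194 to miR-449a. The order is that of assay readings, since amplification efficiencies of different assays were not compared. In Ct, miR-34a was later than miR-192 by 1.09 ± 1.82 cycles (SD, n = 6 samples) and in 4 of 6 samples. These neighbours did not differ beyond that spread, which takes both groups and all series together. The order was the same in each control sample and was reversed in knockdown samples 1 (24.84 against 25.58) and 2 (26.05 against 26.81). The step from miR-34a to miR-204 was 1.42 ± 1.51 cycles, also within its spread, and miR-204 and miR-194 differed by 0.00 ± 0.62 cycles. The step from miR-194 to miR-449a, 2.87 ± 0.77 cycles and in the same direction in 6 of 6 samples, was larger than its spread. By rank, miR-192 had an earlier Ct than 75.3% ± 2.88 of the determined assays of its card (SD, n = 6), miR-34a than 66.8% ± 10.5, miR-194 than 55.6% ± 4.80, miR-204 than 55.6% ± 3.81 and miR-449a than 29.6% ± 11.5.

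Of the 8 members, 6 passed the filter for the test (a Ct under 35 in at least 3 samples and a value in at least 2 of each group), and 0 passed an adjusted p of 0.05 in limma. The background was 0% of 195 assays in either direction, and 0 assays had an unadjusted p under 0.05. With a replicate block for the series number, 0 of 189 assays passed, while 5 higher and 5 lower assays (2.65% each) had an unadjusted p under 0.05, with no member among them. By group mean 4 tested members were higher and 2 lower in knockdown, with a median log2 difference of 0.19 against -0.10 over the 195 assays. The 95% intervals, from -3.40 at the lowest to 3.67 at the highest, span changes of several-fold both ways. With the block the intervals were narrower, and each included 0: -1.55 to 0.50 for miR-192, -1.11 to 0.91 for miR-194, -0.68 to 1.55 for miR-204, -1.43 to 1.51 for miR-34a, -0.79 to 1.48 for miR-449a and -0.68 to 2.13 for miR-449b. Groups overlapped relative to U6 for each of the 5 members determined in all samples, against 0% of assays without overlap on the card.

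**Figure D4:**
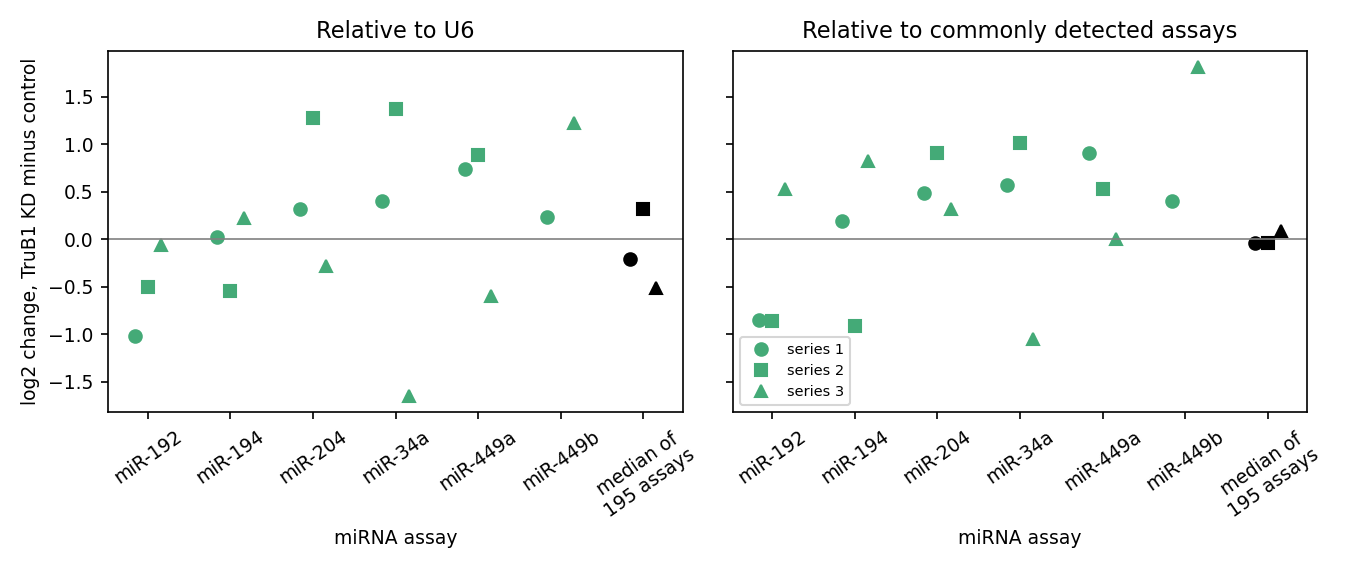
The log2 change from control to TruB1 KD within series 1 (circles), 2 (squares) and 3 (triangles) for 6 members (green) and for the median of the 195 tested assays (black), relative to U6 on the left and to the card mean on the right. The median assay moved by -0.21, 0.32 and -0.51 relative to U6 and by -0.04, -0.04 and 0.09 relative to the card mean. For miR-204 all 3 points are above 0 on the right, and for miR-34a series 3 lies below 0 in both panels.

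The median assay itself changed relative to U6 by -0.21, 0.32 and -0.51 in series 1, 2 and 3. Measured from that median, miR-192 lay at -0.81, -0.81 and 0.44, miR-204 at 0.53, 0.95 and 0.23 and miR-34a at 0.61, 1.06 and -1.14. The median shift was removed by the card mean, where it was -0.04, -0.04 and 0.09. Relative to the card mean, of the 5 members determined in all samples, only miR-204 was clearly on 1 side of 0 in all 3 series. The series 3 pair of miR-449a was at 0.00, and at -0.09 when measured from the median. On the card mean scale 11.8% of the 161 assays were higher in all 3 pairs and 11.8% were lower.

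Other miRNAs of the same themes were taken from lists chosen with earlier results of these data known. Of 13 further kidney epithelial miRNAs (members of the miR-30, miR-10 and miR-200 families and miR-211), 10 had an assay among the tables and 9 were tested. Of these 0 passed the adjusted threshold, 3 had a higher and 6 a lower mean in knockdown, and the median log2 difference was -0.10. Of 10 further p53-related miRNAs (among them miR-143, miR-145, miR-16 and the miR-29 family), 8 had an assay and 7 were tested. Again 0 passed, 1 was higher and 6 were lower, with a median of -0.36. The values for all 195 assays were 79 higher and 116 lower.

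For each member determined in all samples the 2 most similar assays were found from Ct minus the card mean, centred per assay, as the root mean square difference over the 6 samples. The nearest to miR-192 were miR-193b (0.15 cycles) and miR-222 (0.16), against a median of 0.71 over 156 assays. For miR-194 they were miR-374-5p (0.19) and miR-200c (0.26), and for miR-204 miR-26a (0.21) and miR-106a (0.24). For miR-34a they were miR-328 (0.39) and miR-518b (0.41), against a median of 1.28, and for miR-449a miR-146a (0.28) and miR-484 (0.29). The partner miR-194 was therefore not among the 2 nearest to miR-192. Of the seed relatives only miR-34a and miR-449a were among the assays searched, and neither was among the 2 nearest to the other. For the remaining members no seed relative could appear, so the search says nothing on theirs. With 156 candidates and 6 samples, close matches are descriptive only.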

How the data were processed

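Total RNA was reverse transcribed with Megaplex Pool A primers and run on TaqMan array cards, per the labels' protocols. Threshold and baseline settings are not given in the sources used here. The authors' deposited ratio of each assay to U6 was recovered from the deposited Ct values as a power of 2, with the mean determined U6 Ct minus the assay Ct as exponent (largest difference 6.8e-06 on the log2 scale). The deposited fold changes were not used, and within-series ratios were recomputed. The log2 ratios were fitted in limma 3.58.1 (R 4.3.3; lmFit and eBayes, two-sided) over all assays that passed the filter, with group as the only term, undetermined wells as missing and Benjamini-Hochberg adjustment over 195 assays. The fit was run on simulated data with planted changes larger than the member differences of this fit. Only its mean error and signs were held to a limit. How often it would call smaller changes was not tested. A PCR well has no count, so depth is stated as how many assays had a Ct under 35. Members and lists were chosen with earlier results of these data known. All 8 members are named, and for those determined in all samples the 2 most similar assays. Deviations from group means, over 161 assays, correlated at 0.416, 0.527 and 0.625 between samples of the same series number and at -0.536 to 0.249 between others, so the numbers were taken as pairing the samples. This rests on the values, since no label says so. Alternatives were another reference, filter, value for undetermined wells or variance model, the replicate block, and each sample left out. The spread of all pairs of assays and the counts of wells determined in a single group were added after the data had been seen.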

Additional observations from a re-analysis of the deposited data

How the results depend on the processing

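None of the 16 alternatives gave an assay with an adjusted p under 0.05 in limma (0 in each, with 0 to 13 assays and 0 members at an unadjusted p under 0.05), and the lowest adjusted p of a member was 0.54. With the replicate block no call changed: the log2 difference (SE) was -0.53 (0.44) for miR-192, -0.10 (0.43) for miR-194, 0.43 (0.47) for miR-204, 0.04 (0.62) for miR-34a, 0.34 (0.48) for miR-449a and 0.72 (0.58) for miR-449b. Leaving out 1 sample at a time, 11 of 34 member values changed sign, and the range was -1.14 to 0.07 for miR-192, -0.69 to 0.42 for miR-194, -0.17 to 1.20 for miR-204, -1.09 to 1.98 for miR-34a, -0.26 to 0.76 for miR-449a and -0.37 to 0.93 for miR-449b. The range of miR-449b rests on 4 fits. Without control sample 1 or control sample 3 it had too few control values for the filter. The single reversals were without control sample 1 for miR-192 and without knockdown sample 1 for miR-204 and miR-449b. Under other settings 6 of 59 changed sign: miR-194 was 0.03 with the card mean as reference, with and without the block, and raw Ct gave -0.47 for miR-204, -0.86 for miR-34a, -0.56 for miR-449a and -0.65 for miR-449b. Raw Ct carries the shift of the whole card. For the same reason the mean within-series change moved by more than its SD in raw Ct, to -1.43 for miR-192, -1.01 for miR-194, -0.47 for miR-204 and -0.56 for miR-449a. Ranked among the 157 commonly detected assays only, the share of later assays was 67% for miR-192, 41.7% for miR-194 and for miR-204 and 14.2% for miR-449a, since that set leaves out late assays. The change in the miR-194 to miR-192 difference ran from -0.63 to -0.20 cycles with a sample left out.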
